A study of Homo sapiens with 16 samples.

Results

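The libraries described here are 4 of the 16 in a series about JAK-JAK geometry in cells given type I or type III interferons. All 4 came from HEK293 cells, a human embryonic kidney line, whose receptors the labels call wild-type. In 2 of them the cells had received H11, labelled as a high-affinity IFNL3, and in the other 2 they had received IFNL3 (interferon lambda 3), the ligand that H11 is set against. The libraries were taken by their genotype and treatment labels, and no measured value entered the choice. Both ligands were given at 100 nM for 15 min according to the labels, which also give a time of 24 hr and do not say how the 2 figures relate. The 2 untreated libraries of wild-type receptor cells served as a baseline, and the same pair of ligands in HEK293 cells with optimized receptors, with 2 libraries for each ligand, served to show where the wild-type contrast differs. All groups grew in Free-style medium with antibiotics, and no group received a mock treatment, so a difference from untreated cells may include handling. The labels call the replicates biological without saying that they came from separate cultures, so p-values measure the spread between these libraries. One dose and one pair of ligands were compared, and the sources used here do not give the changes that set H11 apart from IFNL3.

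Interferon lambda binds a receptor made of IFNLR1, the chain specific to type III interferons, and IL10RB, a chain shared with the interleukin 10 family. JAK1 and TYK2, the kinases bound to these chains, then phosphorylate STAT2, which joins IRF9 in the complex ISGF3 that switches on interferon-stimulated genes. The sequence that ISGF3 binds, the interferon-stimulated response element, is built from repeats of GAAA. In the body this pathway serves mainly the epithelial surfaces, and interferon lambda is known there for inducing an antiviral state with less inflammation than type I interferons.

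The promoters of 4 interferon-stimulated genes on which the comparison turns are shown with matches to letters of this element: ISG15 (chr1:1013247-1013546, plus strand), IFIT1 (chr10:89392373-89392672, plus strand), IFI6 (chr1:27672143-27672442, minus strand) and IFI27 (chr14:94110486-94110785, plus strand). The sequences are from RefSeq on GRCh38.p14, run 5′ to 3′ along the gene from 250 bases before its start to 50 after it, and have capitals at each match of GAAANNGAAA or of its reverse complement TTTCNNTTTC.
ISG15: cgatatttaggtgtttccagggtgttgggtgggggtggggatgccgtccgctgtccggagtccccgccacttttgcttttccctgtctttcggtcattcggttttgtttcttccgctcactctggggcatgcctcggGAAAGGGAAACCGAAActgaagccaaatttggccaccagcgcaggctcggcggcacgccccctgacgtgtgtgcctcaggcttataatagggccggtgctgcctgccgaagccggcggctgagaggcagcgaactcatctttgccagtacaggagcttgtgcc
IFIT1: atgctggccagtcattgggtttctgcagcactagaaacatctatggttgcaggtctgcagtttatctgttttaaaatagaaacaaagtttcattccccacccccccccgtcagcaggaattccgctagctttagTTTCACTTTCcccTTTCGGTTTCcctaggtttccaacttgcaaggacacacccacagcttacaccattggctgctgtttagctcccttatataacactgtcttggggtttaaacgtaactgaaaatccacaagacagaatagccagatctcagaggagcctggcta
IFI6: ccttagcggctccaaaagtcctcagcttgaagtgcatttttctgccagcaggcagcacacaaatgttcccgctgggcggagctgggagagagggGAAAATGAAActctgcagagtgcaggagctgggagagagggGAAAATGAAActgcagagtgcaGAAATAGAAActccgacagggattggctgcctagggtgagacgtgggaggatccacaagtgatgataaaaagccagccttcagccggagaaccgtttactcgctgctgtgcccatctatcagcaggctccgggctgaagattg
IFI27: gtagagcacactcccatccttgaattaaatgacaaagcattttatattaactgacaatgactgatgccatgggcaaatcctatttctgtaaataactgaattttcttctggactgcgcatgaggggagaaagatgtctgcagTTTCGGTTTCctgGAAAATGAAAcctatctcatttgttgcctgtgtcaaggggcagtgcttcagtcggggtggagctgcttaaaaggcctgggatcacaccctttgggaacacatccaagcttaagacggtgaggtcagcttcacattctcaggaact
ISG15, IFIT1 and IFI27 had 2 matches each and IFI6 had 3. The 2 matches in ISG15 overlap each other. Of 35116 RefSeq promoters of this length, 1255 (3.57%) held a match, and of the 44 antiviral effector genes with a RefSeq promoter 28 did so (63.6%). Of 6 other promoters of genes described here, those of IFIT3, B2M and TAP1 held 2 matches each and those of IRF9, OAS1 and PSMB9 held none, which says only that these letters are not in their windows. A match describes the letters in the window and is no evidence of binding.

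The 4 libraries held 8736786 to 9499486 reads and 15030 to 15250 genes with a read, so depth was alike across the ligands. HEK293 identity was checked on 14 embryonic kidney and HEK293 markers. VIM (vimentin) lay between 500 and 542 CPM (read counts scaled to library size with TMM factors), and LHX1, a kidney development factor, lay between 19.7 and 21.6 CPM, whereas PAX8 was at 0.0827 to 1.52 CPM and NEFM was at 0. Among markers of other cell types, the fibroblast list reached 16.3 CPM through COL1A1, a collagen chain at 12.5 to 16.3 CPM in the 4 libraries and the only one of its list over 5 CPM. The other lists were lower, with no blood cell marker above 5.48 CPM, no hepatocyte marker above 0.537 CPM and no keratinocyte or airway marker above 1.88 CPM. The 4 libraries differed from the other 12 in 2 measures. Their 50 most abundant genes took 17.7 to 18.5% of the reads, against 23.7 to 28.7% in the others. The other measure was the rank correlation of transcript length with log2 CPM less each gene's mean over the 16 libraries. It was 0.374 to 0.412, against 0.137 to 0.161 in untreated wild-type receptor cells. Log2 fold changes against untreated cells moved with transcript length, at rank correlations of 0.251 for H11 and 0.248 for IFNL3. With an offset for transcript length, 4432 genes were called for H11 against untreated cells in place of 4932, and 4562 for IFNL3 in place of 5047. The part of the most abundant genes was not tested. The ranges of both measures over the 4 libraries are narrow beside those gaps.

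Between H11 and IFNL3 in wild-type receptor cells no gene passed the test. Of 12704 genes tested, 0 (0%) had a Benjamini-Hochberg adjusted p under 0.05 with edgeR's quasi-likelihood test, and 158 (1.24%) had an unadjusted p under 0.05. The latter share is below the 0.05 that unchanged genes would give on average, so the test was cautious for this contrast. The count of called genes was also 0 with DESeq2, where 108 genes had an unadjusted p under 0.05. Over the 9808 genes that averaged at least 5 CPM, the median log2 fold change of H11 over IFNL3 was 0.01. The central 95% of these genes lay between -0.33 and 0.29. A p that misses the threshold does not show equal levels, so each gene was given a 95% interval for its fold change. That interval lay within 1.5-fold in either direction for 6969 of the 9808 genes (71.1%) and within 2-fold for 9539 (97.3%). The precision followed abundance, with 93.5% of the 3271 genes over 50 CPM inside 1.5-fold. The count inside 1.5-fold was lower without any 1 of the 4 compared libraries, when its group kept a single library in the fit.

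**Figure D1:**
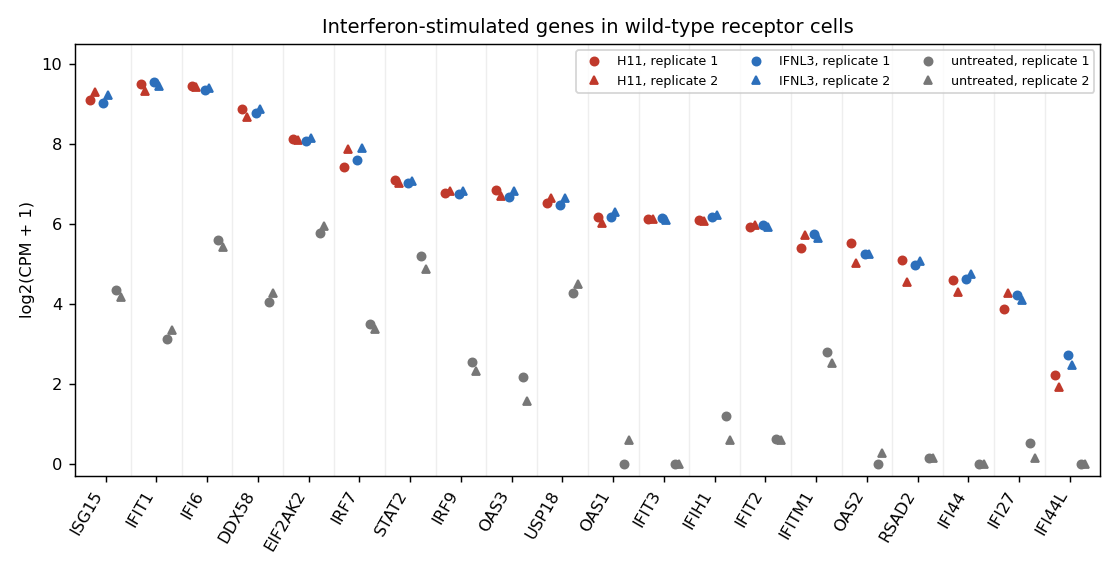
Levels of 20 interferon-stimulated genes in wild-type receptor cells, as log2(CPM + 1) on the vertical axis, with 1 point per library for H11 (red), IFNL3 (blue) and untreated cells (grey). For each gene the red and blue points lie close together and above both grey points; at ISG15 the 4 ligand libraries span 521 to 627 CPM and the untreated ones 17 and 19.2 CPM.

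Nearly all antiviral effectors, the proteins that block steps of viral growth, rose with both ligands. Of the 50 tested, 47 rose with H11 and 47 with IFNL3 over untreated cells, where 18.2% and 18.7% of all genes tested rose; the exceptions were MX1, MX2 and LY6E in both cases. In either direction 38.8% and 39.7% of all genes were called, and the 2 comparisons share the untreated libraries. Between the ligands, none of the 50 was called, against 0% of all genes. The median log2 fold change of the 43 members over 5 CPM was -0.04, with a range of -0.27 to 0.37, beside 0.01 over all genes. For 38 of these 43 the 95% interval lay within 1.5-fold, and for 42 within 2-fold. The libraries of H11 lay wholly above those of IFNL3 for 3 of the 43 and wholly below for 5, where 13.5% and 11.1% of all genes over 5 CPM did so. In such bulk samples, fewer responding cells and less RNA per responding cell cannot be told apart.

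ISG15, the ubiquitin-like protein attached to viral and host proteins, measured 544 and 627 CPM with H11, against 521 and 595 CPM with IFNL3. The ligand groups overlapped, and both stood far above the 19.2 and 17 CPM of untreated cells. The H11 to IFNL3 ratio was 1.05-fold with a 95% interval of 0.873 to 1.26. IFIT1, which binds viral RNA that lacks the host's cap methylation, had 722 and 637 CPM with H11 and 753 and 692 CPM with IFNL3. These groups overlapped too, at 0.94-fold (0.791 to 1.12), and untreated cells had 7.71 and 9.18 CPM. IFI6, a membrane protein that protects cells from flaviviruses and apoptosis, had 699 and 689 CPM with H11 against 647 and 671 CPM with IFNL3. Both H11 libraries were higher, by 1.05-fold (0.898 to 1.24), a difference that the test did not call. These 3 genes are among those whose promoters, shown above, hold a match to the letters searched for. IFI27, the other one shown, had 13.5 and 18.4 CPM with H11 and 17.6 and 16.2 CPM with IFNL3, at 0.944-fold (0.728 to 1.22).

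IFIT3, the partner that stabilises IFIT1, was 68.8 and 68.8 CPM with H11 and 70.0 and 67.6 CPM with IFNL3, with no reads in either untreated library. IFIT2, from the same gene cluster, was 60.1 and 62.0 CPM with H11 and 61.7 and 59.9 CPM with IFNL3. The spread between the ligands in both genes was no larger than that within them. OAS1, which makes the second messenger that activates RNase L, had 71.5 and 64.4 CPM with H11 against 70.8 and 77.6 CPM with IFNL3. Its relatives OAS2 and OAS3 had ratios of 1.03-fold (0.791 to 1.35) and 1.01-fold (0.82 to 1.25). RSAD2, the enzyme viperin that makes a chain-terminating nucleotide, had 33.4 and 22.2 CPM with H11 and 30.1 and 32.8 CPM with IFNL3, the lowest value being that of H11 replicate 2. IFITM1 and IFITM3, which hinder viral entry at membranes, stood at 0.911-fold (0.745 to 1.11) and 0.949-fold (0.757 to 1.19). EIF2AK2, the kinase PKR that halts translation, had 280 and 274 CPM with H11 and 270 and 283 CPM with IFNL3. MX1, a GTPase that is a usual marker of the response, stayed below 1.88 CPM in 3 of the 4 libraries and reached that value in IFNL3 replicate 1.

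IFI44L and IFI44 were lower in both H11 libraries. IFI44L, an interferon-induced protein related to IFI44, had 3.65 and 2.81 CPM with H11 and 5.54 and 4.58 CPM with IFNL3, with 0 reads in untreated cells. Both H11 libraries were lower, at 0.638-fold with an interval of 0.46 to 0.886, an unadjusted p of 0.01 and an adjusted p of 1 by edgeR's quasi-likelihood test. IFI44 had 23.3 and 18.6 CPM with H11 and 23.8 and 25.9 CPM with IFNL3, again without overlap, at 0.843-fold (0.672 to 1.06). BST2, the tether that holds budding virions at the cell surface, had 464 and 403 CPM with H11 against 478 and 540 CPM with IFNL3, at 0.853-fold (0.703 to 1.03). At the other end NMI, an interferon-induced partner of STAT proteins, had 10 and 10 CPM with H11 and 7.87 and 7.63 CPM with IFNL3. None of these 4 genes passed the test.

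None of the receptor chains and kinases that read the ligands was called between them. IFNLR1, listed under its older symbol IL28RA, had 1.39 and 3.39 CPM with H11 and 2.59 and 1.97 CPM with IFNL3, on 16 to 41 reads a library. At this depth its interval for the ratio was wide, and the groups overlapped. IL10RB had 9.65 and 11.9 CPM with H11 and 11.6 and 11.4 CPM with IFNL3, at 0.937-fold (0.727 to 1.21). It fell against the 22.6 and 20.6 CPM of untreated cells, to 0.5-fold with H11 (adjusted p = 0.0002) and 0.533-fold with IFNL3 (adjusted p = 0.00046, edgeR). JAK1 had 16.3 and 13.5 CPM with H11 and 18.7 and 11 CPM with IFNL3. TYK2 had 42.1 and 32.5 CPM with H11, both below the 44.7 and 48.6 CPM with IFNL3, at 0.799-fold (0.599 to 1.06). Of the 7 members of this list over 5 CPM, none was called and all 7 had an interval within 2-fold. No gene for an interferon itself passed the filter on low counts, and none exceeded 0.414 CPM in the 4 libraries.

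The factors that carry the signal to the nucleus rose with both ligands and were not called between them. IRF9 had 108 and 112 CPM with H11 and 106 and 113 CPM with IFNL3, against 4.88 and 3.99 CPM untreated, and its ratio between the ligands was 1.00-fold (0.839 to 1.19). STAT2 stood at 1.01-fold (0.841 to 1.21) between the ligands, an interval within 1.5-fold like that of IRF9. IRF7, which amplifies the interferon loop, had 171 and 232 CPM with H11 and 193 and 237 CPM with IFNL3. Its replicate 2 was the higher library with either ligand. USP18, the protease that removes ISG15 and restrains the type I receptor, had 91.1 and 98.7 CPM with H11, against 88.4 and 99.1 CPM with IFNL3 and 18.4 and 21.6 CPM in untreated cells. IRF1, a factor that also serves the interferon gamma response, had 20.7 and 18.2 CPM with H11, below the 20.9 and 22.2 CPM with IFNL3 by a margin that was not called. Of 17 tested genes for interferon signalling and feedback, 8 rose and 1 fell with each ligand over untreated cells, where 18.2% (H11) and 18.7% (IFNL3) of all genes rose and 20.6% and 21.1% fell. Over the 14 above 5 CPM the median between the ligands was -0.02.

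No sensor of viral RNA was called between the ligands. Of the 5 tested genes for such sensors and their adaptor, 4 rose with each ligand over untreated cells, where 18.2% (H11) and 18.7% (IFNL3) of all genes did. The other was MAVS, the mitochondrial adaptor, at log2 values of 0 with H11 and -0.11 with IFNL3 (adjusted p = 0.99 and 0.64, edgeR). DDX58, which encodes RIG-I, had 465 and 410 CPM with H11 and 440 and 465 CPM with IFNL3, against 15.4 and 18.4 CPM in untreated cells. IFIH1, which encodes MDA5, had 67.0 and 66.1 CPM with H11 and 71.5 and 73.1 CPM with IFNL3. Both IFIH1 libraries with H11 were lower, at 0.921-fold (0.703 to 1.21). DDX60, a helicase linked to RIG-I signalling, was likewise lower in both H11 libraries, at 33.8 and 33.0 CPM against 35.7 and 38.6 CPM. The 3 genes of the sensor list over 5 CPM, IFIH1, MAVS and DDX58, had intervals within 1.5-fold. Of the 6 genes for ISG15 and its conjugation, 5 rose and 1 fell with each ligand against untreated cells, beside 18.2% (H11) and 18.7% (IFNL3) of all genes that rose and 20.6% and 21.1% that fell, and the median between the ligands was -0.02. The gene that fell was UBE2L6, the conjugating enzyme for ISG15, with 13.6 and 15.5 CPM with H11 and 18.4 and 15.0 CPM with IFNL3, against 25.3 and 23.9 CPM untreated. Its call with IFNL3 was lost with the length offset (log2 -0.24, adjusted p = 0.26), without IFNL3 replicate 2 (0.12) and without untreated replicate 1 (0.057, edgeR). HERC5, the main human ligase for ISG15, had 78.7 and 76.2 CPM with H11 and 79.1 and 69.7 CPM with IFNL3, against 12.5 and 10.1 CPM untreated.

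No gene of antigen presentation was called between the ligands. Among the 20 tested genes for MHC class I presentation, 5 rose and 2 fell with each ligand over untreated cells, where 18.2% (H11) and 18.7% (IFNL3) of all genes rose and 20.6% and 21.1% fell. The count that rose is near the share of all genes. TAP1, a subunit of the transporter that carries peptides to class I molecules, had 105 and 109 CPM with H11 and 115 and 110 CPM with IFNL3, against 45.8 and 49.9 CPM untreated. It rose 2.24-fold with H11 (adjusted p = 1.2e-06) and 2.35-fold with IFNL3 (adjusted p = 6.5e-07, edgeR). NLRC5, the transactivator of class I genes, had 57.2 and 63.5 CPM with H11 and 60.8 and 74.3 CPM with IFNL3, against 6.19 and 8.98 CPM untreated. HLA-B, a class I heavy chain, had 89.1 and 102 CPM with H11 and 92.8 and 86.4 CPM with IFNL3, and fell against the 136 and 133 CPM of untreated cells (adjusted p = 0.03 with H11 and 0.012 with IFNL3, edgeR). The length offset ended both calls, at log2 values of -0.17 with H11 (adjusted p = 0.43) and -0.26 with IFNL3 (adjusted p = 0.23). The call with H11 was also lost without any 1 of the 4 libraries compared (adjusted p = 0.054 to 0.18), and that with IFNL3 without IFNL3 replicate 2 (0.085) or untreated replicate 1 (0.057, edgeR). B2M, the light chain of class I molecules, had 415 and 426 CPM with H11 against 406 and 401 CPM with IFNL3. PSMB9, a catalytic subunit of the immunoproteasome, had 10.3 and 15.0 CPM with H11 and 13.1 and 17.9 CPM with IFNL3, overlapping the 12.4 and 13.2 CPM of untreated cells. The median of the 16 members over 5 CPM between the ligands was 0, and 14 of them had intervals within 1.5-fold. The sources used here do not say how reads shared by near-identical class I, histone or ribosomal protein genes were counted, so their levels are uncertain in that respect.

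**Figure D2:**
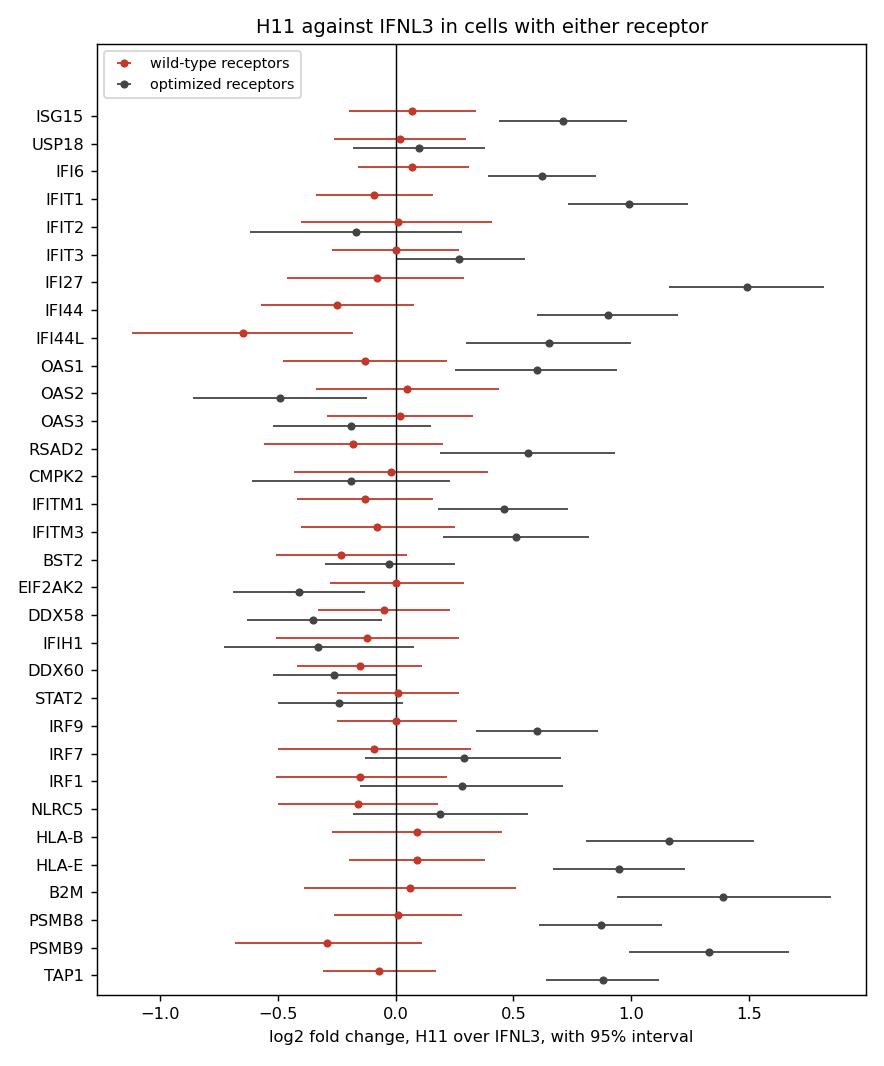
Log2 fold change of H11 over IFNL3 (horizontal axis) with its 95% interval for 32 interferon-stimulated genes in wild-type receptor cells (red) and optimized receptor cells (dark grey). In wild-type receptor cells the values run from -0.65 for IFI44L to 0.09 for HLA-B and HLA-E, and every interval but that of IFI44L includes 0.

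Genes outside the interferon pathway that differed from untreated cells were not called between the ligands either. Among 11 tested targets of TGF-beta and YAP signalling, 10 rose with each ligand, where 18.2% (H11) and 18.7% (IFNL3) of all genes did. CYR61, a matricellular protein and YAP target, had 214 and 216 CPM with H11 and 233 and 222 CPM with IFNL3, against 19.1 and 19.6 CPM untreated, and ID1, a target of SMAD signalling, had 143 and 142 CPM with H11 and 148 and 138 CPM with IFNL3. Of 24 genes of the amino-acid and ER stress response, 17 fell with H11 and 15 with IFNL3, where 20.6% and 21.1% of all genes tested fell. CHAC1, a glutathione-degrading enzyme and ATF4 target, had 12.8 and 14.9 CPM with H11, below the 16.4 and 16.7 CPM with IFNL3 and the 109 and 102 CPM of untreated cells. Its ligand ratio on the log2 scale was -0.26 ± 0.18 (SE) and was not called. The medians between the ligands were 0.02 for TGF-beta and YAP targets, 0.03 for the stress response, 0.02 for cholesterol synthesis, 0 for heat shock genes and 0.01 for histones. Ribosomal protein genes had a median of 0.06, with 30 of 37 members above 0, beside 5140 of all 9808 genes over 5 CPM. Their 37 members had intervals within 2-fold and none was called. The H11 libraries lay wholly above those of IFNL3 for 9 of them and wholly below for 0, where 13.5% and 11.1% of all genes over 5 CPM did so.

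**Figure D3:**
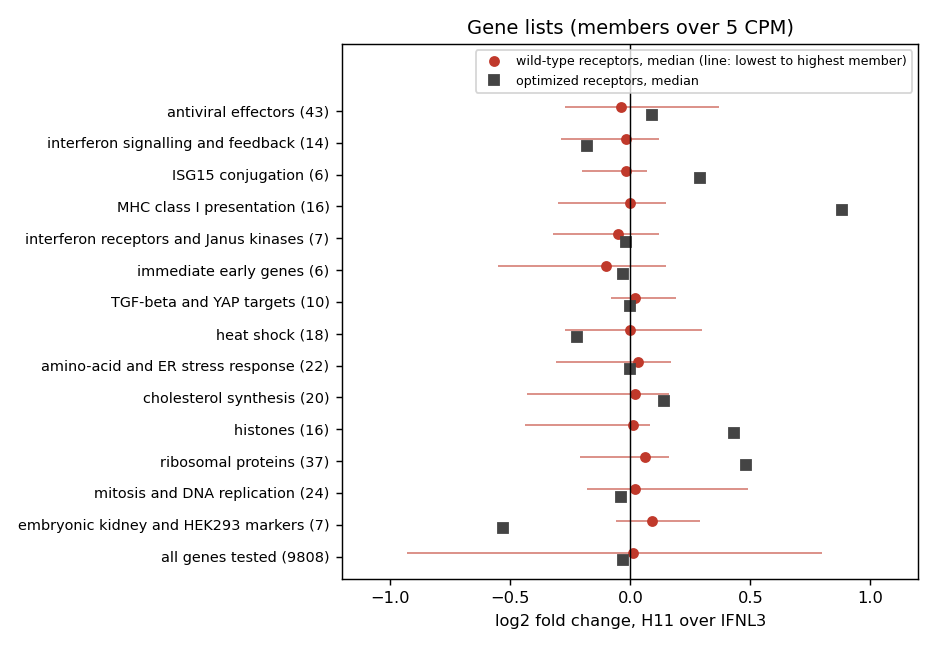
Median log2 fold change of H11 over IFNL3 for lists with at least 6 members over 5 CPM (their number in brackets) and for all genes, in wild-type receptor cells (red circles, with a line from the lowest to the highest member) and optimized receptor cells (dark squares). The red medians lie between -0.1 and 0.09; the dark ones reach 0.88 for MHC class I presentation.

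H11 replicate 2 was low in 3 abundant genes, grouped here after their values were seen. CALR, a chaperone of the endoplasmic reticulum that loads class I molecules, had 1100 CPM in H11 replicate 1 and 508 CPM in H11 replicate 2, against 1051 and 932 CPM with IFNL3. HSPD1, the mitochondrial chaperonin, had 1599 and 964 CPM with H11 and 1522 and 1559 CPM with IFNL3. RPS27, a small-subunit ribosomal protein, had 465 and 283 CPM with H11 and 442 and 425 CPM with IFNL3. In each of these 3 genes the lowest of the 4 values was that of H11 replicate 2, and the other H11 library lay above both IFNL3 libraries. How many other genes share this pattern was not counted. RPS27 went against its own list. The ribosomal protein genes summed to 66160 CPM in H11 replicate 2, 65931 CPM in H11 replicate 1, and 63728 and 63850 CPM with IFNL3.

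Libraries of different ligands lay about as near to each other as libraries of the same ligand. Over the 9808 genes, H11 replicate 1 and IFNL3 replicate 1 differed by a median of 0.117 on the log2 scale, and the replicates numbered 2 by 0.121. The 2 H11 libraries differed from each other by 0.149 and the 2 IFNL3 libraries by 0.144. All 4 pairs across ligands, at 0.117 to 0.145, lay below the distance between the H11 replicates. Pairs of the same ligand always differ in replicate number. The pairs across ligands that also differ in it lay at 0.137 and 0.145. Over the 43 antiviral effectors the pairs across ligands lay at 0.0937 to 0.136, against 0.151 for the H11 pair and 0.119 for the IFNL3 pair. The counts of every pair differed by more than counting noise, with 4.05 to 9.88 as the chi-square over its degrees of freedom, and each library was kept as a sample of its own.

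**Figure D4:**
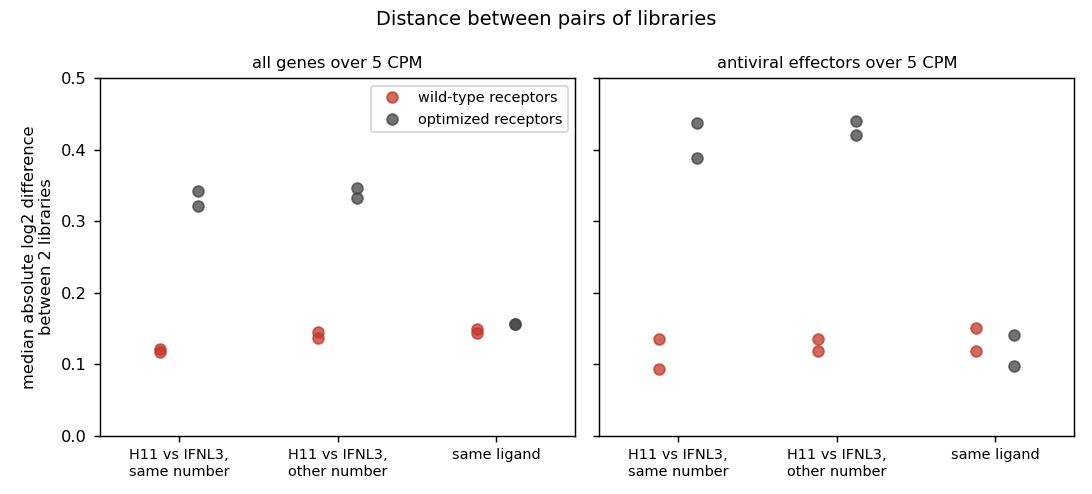
Median absolute log2 difference between 2 libraries (vertical axis) for pairs of H11 with IFNL3 and pairs of 1 ligand, over all genes over 5 CPM (left) and antiviral effectors (right), in wild-type receptor cells (red) and optimized receptor cells (dark grey). The wild-type pairs lie at 0.0937 to 0.151 whether or not the ligand differs; the optimized pairs lie at 0.321 to 0.441 across ligands and at 0.0977 to 0.157 within one.

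The genes with the smallest unadjusted p among those whose libraries did not overlap are given as values, since none passed the test. On the higher side USP30, a deubiquitinase of the outer mitochondrial membrane, had 11 and 9.43 CPM with H11 and 5.54 and 6.46 CPM with IFNL3, and a log2 fold change of 0.77 ± 0.21 (SE). Untreated cells had 10.1 and 13.3 CPM, nearer to the H11 libraries. CCNE1, the cyclin that drives entry into S phase, had 22.1 and 23.6 CPM with H11 against 16.3 and 16.2 CPM with IFNL3. COA5, an assembly factor of cytochrome c oxidase, had 28.6 and 29 CPM with H11 and 21.6 and 22.2 CPM with IFNL3. The other 7 on this side were ZNF169, MLLT11, LPCAT3, SIRT2, MFSD1, PTPDC1 and TPPP3. On the lower side CYB5R4, a cytochrome b5 reductase, had 2.96 and 3.56 CPM with H11 and 6.53 and 5.47 CPM with IFNL3, at -0.88 ± 0.25 (SE). SRPRB, a subunit of the signal recognition particle receptor, had 30.5 and 46.4 CPM with H11 and 60.6 and 54.1 CPM with IFNL3. The remaining 8 were ZNF81, C21orf2, PLEKHA8, GCSHP3, ASNA1, IFI44L, ZNF77 and CPOX. Their unadjusted p-values ran from 0.0017 for USP30 upward, and all 20 had an adjusted p of 1 by edgeR's quasi-likelihood test. IFI44L was the only one of the 20 on the list of antiviral effectors.

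In optimized receptor cells the same pair of ligands gave 2232 called genes (17.6% of 12704), with 1360 (10.7%) higher and 872 (6.86%) lower with H11. Libraries of the 2 ligands did not overlap there for 3331 genes higher with H11 (34%) and 3321 lower with H11 (33.9%), of 9803 genes above 5 CPM in optimized receptor cells. Over the 9808 genes above 5 CPM in wild-type receptor cells, 36 (0.367%) had a fold change beyond 1.5-fold between the ligands in wild-type receptor cells and 1894 (19.3%) in optimized receptor cells. The difference of the 2 contrasts, wild-type minus optimized, was itself tested in the same fit and called 575 genes (4.53%), of which 155 were higher and 420 lower. Of the 420 lower ones 416 rose with H11 in optimized receptor cells, where their median log2 fold change was 0.87 against -0.02 in wild-type receptor cells. All 155 higher ones fell there, with a median of -0.79 against 0.08.

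**Figure D5:**
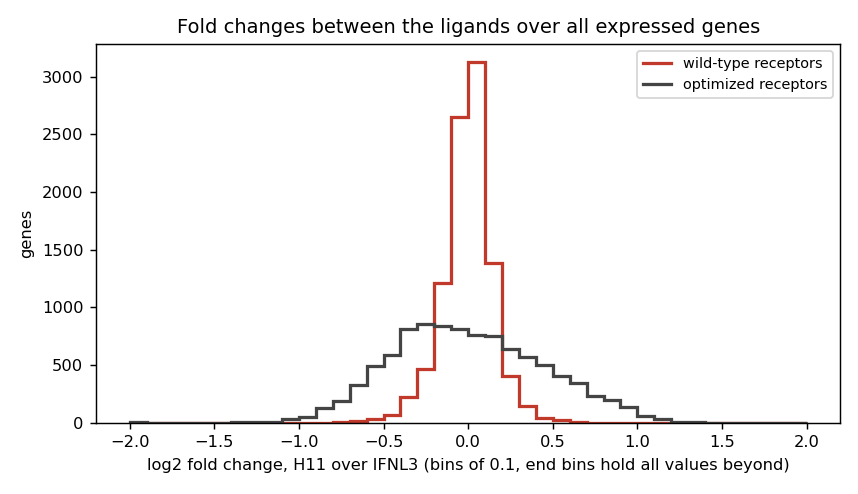
Number of genes (vertical axis) by log2 fold change of H11 over IFNL3 in bins of 0.1 (horizontal axis) for the 9808 genes over 5 CPM in wild-type receptor cells (red) and the same genes in optimized receptor cells (dark grey). The central 95% of values span -0.33 to 0.29 in wild-type receptor cells and -0.8 to 0.9 in optimized receptor cells.

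Transcript length moved with this difference. The rank correlation across 11786 genes between the log2 fold change of H11 over IFNL3 and transcript length was -0.00303 in wild-type receptor cells and -0.429 in optimized receptor cells, and it was 0.398 for the difference. Log2 CPM less each gene's mean over the 16 libraries had a rank correlation with length of -0.414 to -0.402 in the optimized H11 libraries. In the optimized IFNL3 libraries it was 0.0329 to 0.0792. With an offset for transcript length in each library the difference called 119 genes instead of 575. Without any 1 of the 8 compared libraries it called between 127 (without wild-type IFNL3 replicate 1) and 254 (without wild-type H11 replicate 2).

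Genes of antigen presentation, ribosomal proteins and histones were among those with a called difference. The contrast was lower in wild-type receptor cells for 9 of 20 tested genes of MHC class I presentation, 9 of 37 ribosomal protein genes and 5 of 16 histone genes, where 3.31% of all genes were, and it was higher for none of them. With the length offset the ribosomal protein genes RPS27 and RPL30 and the histone gene HIST2H2AC lost the call. RPS23, RPL35, RPS18 and the histone gene HIST1H1D also lost it (adjusted p = 0.065, 0.55, 0.35 and 0.49, edgeR). The remaining called ribosomal protein genes were not followed singly. The histone genes HIST1H3D, HIST1H3B and HIST1H4C kept it with that offset. PSMB9 had 309 and 315 CPM with H11 and 114 and 134 CPM with IFNL3 in optimized receptor cells, and its difference was -1.62 ± 0.25 (SE, adjusted p = 0.006 by edgeR). PSME2, a subunit of the proteasome activator PA28, differed by -1.21 ± 0.18 and TAP1 by -0.95 ± 0.16. The calls of these 3 genes held under every alternative tried. B2M had 6282 and 6212 CPM with H11 against 2388 and 2376 CPM with IFNL3 in optimized receptor cells, and differed by -1.33 ± 0.3. HLA-B, HLA-E, PSMB8 and PSMB10 differed by -1.07, -0.86, -0.86 and -0.89, and these 4 and B2M lost the call with the length offset and without at least 1 single library. Over all alternatives their values stayed between -1.36 for B2M and -0.54 for PSMB10.

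Among the antiviral effectors 6 of 50 had a called difference, all lower in wild-type receptor cells, where 3.31% of all genes were called lower. IFI27, a mitochondrial and nuclear envelope protein, had 3180 and 2908 CPM with H11 and 1057 and 1108 CPM with IFNL3 in optimized receptor cells, in contrast to the wild-type values given above. The H11 libraries lay above the IFNL3 libraries in the optimized cells and overlapped them in wild-type receptor cells, and the difference was -1.57 ± 0.23 (SE, adjusted p = 0.006 by edgeR). IFIT1 had 2215 and 2019 CPM with H11 and 1119 and 1019 CPM with IFNL3 in optimized receptor cells and differed by -1.07 ± 0.17. The calls of IFI27 and IFIT1 held under every alternative. IFI44 differed by -1.15, IFI44L by -1.3 and TRIM21, an antibody receptor that degrades coated virions, by -1.11. IFI44 and TRIM21 lost the call with the length offset, and IFI44L and TRIM21 lost it without at least 1 single library. ISG15 and IFI6, at -0.64 (adjusted p = 0.051) and -0.55 (adjusted p = 0.053), and OAS1 at -0.72 (adjusted p = 0.083) did not pass edgeR's quasi-likelihood test. These 3 genes did pass with DESeq2, with the compared groups alone and with no filter on low counts. With the length offset, their H11 against IFNL3 contrast in optimized receptor cells itself lost its call. The log2 values were then 0.25 for ISG15, 0.18 for IFI6 and 0.46 for OAS1 (adjusted p = 0.22, 0.35 and 0.079, edgeR).

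The called differences also held genes outside the pathway. ETV5, a transcription factor induced by growth-factor signalling, had 5.74 and 5.29 CPM with H11 and 5.28 and 2.51 CPM with IFNL3 in wild-type receptor cells, and 0.77 and 0.853 CPM with H11 and 3.77 and 6.92 CPM with IFNL3 in optimized receptor cells. Its difference was 3.2 ± 0.59 (SE, adjusted p = 0.0082 by edgeR), the largest positive one named. This value rests on few reads, since each CPM stood for 7.8 and 7.03 reads in optimized H11 replicates 1 and 2. EGR3 and PHLDA1, which also answer growth factors, differed by 2.59 and 1.43, and NUP205, a nuclear pore scaffold, by 1.22. EGR3, PHLDA1 and NUP205 lost the call without at least 1 single library, and PHLDA1 also with the length offset. The histone genes HIST1H3D, HIST1H3B, HIST1H4C and HIST2H2AC differed by -1.9, -0.85, -0.95 and -1.36. RPS27 and RPL30 differed by -1.19 and -0.91, the mitochondrial co-chaperonin HSPE1 by -1.03 and ID1 by -0.84. RPS27, RPL30, HSPE1 and ID1 each lost the call with the length offset, as HIST2H2AC did. ID1, HIST2H2AC and HIST1H4C lost it without at least 1 single library. ASNA1, an ATPase that inserts tail-anchored membrane proteins, had 39.7 and 42.8 CPM with H11 and 61.4 and 48.6 CPM with IFNL3 in wild-type receptor cells, but 178 and 163 CPM with H11 and 85.8 and 84.5 CPM with IFNL3 in optimized receptor cells. Its difference was -1.42 ± 0.2. Of the 26 called genes whose difference is given here, 9 kept the call under every alternative that gave them a value, and 13 lost it with the length offset.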

How the data were processed

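Each of the 16 libraries was deposited as a table of whole-number read counts per target, with no normalization, per the file headers. The submitters' processing notes name hg19. Aligner, counter and use of strand were not given in the sources used here. Libraries were made with Ion Torrent kits, per the labels' protocols. Of 20812 targets per table, 10 spike-in controls with at most 1 read were left out, and 27 of 28 symbols that had become dates were renamed from their Entrez identifier. Totals were 5331203 to 9822088 reads a library.

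A single fit of all 16 libraries, with 1 coefficient per group, used edgeR 4.0.16 (R 4.3.3): filterByExpr by group, TMM factors, glmQLFit and glmQLFTest. The common dispersion was 0.0176, a biological coefficient of variation of 13.3%. Adjusted p-values are Benjamini-Hochberg over 12704 genes, with a threshold of 0.05. The 95% intervals use the standard error from the quasi-likelihood F, and they cover the spread between libraries, not molecules, since reads were not collapsed by molecule. CPM values are TMM-scaled. Distances between libraries use log2 CPM with a prior count of 2. The procedure was tested on simulated data.

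Named genes were a panel of 42, the 10 genes in each direction with the smallest unadjusted p whose libraries did not overlap, up to 10 called genes in each direction with the largest difference between genotypes, and up to 5 members of each of 22 lists by fold change, plus called list members. HLA-E, PSMB8, PSMB10 and TAP1 were named as called members of their list. A few genes taken by this rule are not reported. Of 382 list memberships 379 matched a target. The members and lists were chosen with earlier results of these data known. Transcript lengths are the longest GENCODE 29 transcript of a gene (92.8% of tested genes), which need not be what each target counts, so levels are not compared between genes.

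Other settings tried were a length offset (natural spline, 5 degrees of freedom), DESeq2 1.42.0 as the tool or for size factors alone, no filter on low counts, a block for replicate number, a fit of the compared groups only, and leaving out single libraries, where the lone library left is taken to vary as the others do. The replicate contrast, the length offset with a block, the 4 libraries alone with a block, and the fit without the shallowest library were added after seeing the data.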

Additional observations from a re-analysis of the deposited data

Results flagged for a closer look

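The effect of H11 over IFNL3 differed between the receptor genotypes by the test of the difference itself (edgeR's quasi-likelihood test, adjusted p under 0.05) for 575 genes, which is why the genes below are listed. Differences of log2 fold changes, wild-type minus optimized, were -1.07 for IFIT1, -1.57 for IFI27, -1.15 for IFI44, -1.3 for IFI44L and -1.11 for TRIM21 among antiviral effectors. In antigen presentation they were -1.62 for PSMB9, -0.86 for PSMB8, -0.89 for PSMB10, -1.21 for PSME2, -0.95 for TAP1, -1.33 for B2M, -1.07 for HLA-B and -0.86 for HLA-E. Histone genes gave -1.9 for HIST1H3D, -0.85 for HIST1H3B, -0.95 for HIST1H4C and -1.36 for HIST2H2AC. The rest were -1.19 for RPS27, -0.91 for RPL30, -1.03 for HSPE1, -0.84 for ID1 and -1.42 for ASNA1, and on the positive side 3.2 for ETV5, 2.59 for EGR3, 1.43 for PHLDA1 and 1.22 for NUP205. The difference between the genotypes moves with transcript length (rank correlation 0.398 across 11786 genes), and the part of length in it was not tested beyond the offset reported below.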

How the results depend on the processing

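The count of 0 genes between H11 and IFNL3 in wild-type receptor cells stayed at 0 under 9 other settings, each library left out included, and under the 2 added after seeing the data. With no filter on low counts it was 1, the gene GRAMD1A, which had 297 and 104 reads with H11 and 348 and 380 reads with IFNL3. None of the single genes named for this contrast was called under any alternative. Without single libraries (range over those left out), the count of intervals within 1.5-fold was 4539 to 4677 (7671 without the shallowest library, which is in no comparison), the optimized contrast called 1046 to 1213 genes, the difference between genotypes 127 to 254, H11 against untreated cells 3449 to 3550 of 4932, and IFNL3 against untreated cells 3462 to 3616 of 5047. For the optimized contrast each of its 4 libraries, left out, moved the count by over 1.5 times, with 1213 and 1122 genes without H11 replicates 1 and 2, and 1196 and 1046 without IFNL3 replicates 1 and 2. The length offset gave 1220 genes in the optimized contrast and 119 in the difference. The compared groups alone gave 1297 genes in the difference and DESeq2 gave 904, with no adjusted p for 5172 genes. With a compared library left out, its group keeps a single library in the fit. The cause of the shifts was not tested. One value reversed: CXCL10, with 0 and 0.91 CPM with H11 and no reads in untreated cells, had log2 values of 0 (without H11 replicate 2) to 6.04 (without H11 replicate 1) for H11 against untreated cells.

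With the replicate block the difference called 1263 genes in place of 575 (532 with the length offset as well), and the wild-type contrast 0, with 227 at an unadjusted p under 0.05. Of the named genes ISG15, IFI6, OAS1, RSAD2, IFITM1, IFITM3, IRF9 and JAK1 were then also called in the difference. The numbers do not pair the samples by any label. Deviations of same-numbered libraries correlated at 0.195 across genes between wild-type H11 and wild-type IFNL3, and at 0.123 to 0.341 over the 28 pairs of groups. With only 2 numbers the block was kept as an alternative.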

Other observations

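Within the 4 wild-type libraries the replicate number separated more genes than the ligand did, in a comparison added after seeing the data. In a fit of these libraries alone with ligand and replicate number as terms, 58 of 12173 genes were called between replicate 2 and replicate 1 (27 higher and 31 lower in replicate 2, edgeR's quasi-likelihood test) and 0 between H11 and IFNL3, with 1257 (10.3%) and 356 (2.92%) at an unadjusted p under 0.05. RBMX2, a spliceosome component, had 49 and 61.8 CPM in replicate 2 (H11 and IFNL3), against 9.57 and 10.6 CPM in replicate 1. TCF7L1, a transcription factor of the WNT pathway, had 137 and 155 CPM in replicate 2 (H11 and IFNL3), against 51.1 and 43.3 CPM in replicate 1. SNRPB2 and U2AF2, also spliceosome proteins, were higher in replicate 2 by 1.22 and 0.8 on the log2 scale. In the 4 optimized libraries the same fit called 349 genes for replicate number and 4344 for ligand. The sources used here do not say what the replicate numbers stand for.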
